A study of Mus musculus with 7 samples.

Results

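The voltage-gated sodium and calcium channels, the hyperpolarization-activated (HCN) channels and the potassium channels were examined in outflow tracts (OFTs) of mouse embryos. Members were chosen by gene name alone, as every listed pore-forming or auxiliary subunit whose symbol follows the Scn, Cacna, Cacnb, Cacng, Hcn or Kcn naming, and 77 of the 14732 listed genes met this rule. The annotation holds 136 protein-coding genes with such names, and the other 59 were not analysed here. Polyadenylated RNA of pooled E11.5 OFTs was sequenced for 3 control (wild-type) pools, numbered 3, 4 and 5, and 4 Gata6STOP/+ pools, numbered 1, 3, 4 and 5. Gata6STOP/+ embryos carry 1 edited copy of Gata6, a frameshift made with CRISPR-Cas9 that creates a premature termination codon, and 1 intact copy in every cell. The study text gives 3 pools of 4 pairs of OFTs for each genotype, whereas the labels give 4 pools for Gata6STOP/+, and no label says which embryos or litters a pool holds. Values are CPM, that is reads scaled to a library's total after TMM normalization.

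Voltage-gated sodium channels carry the fast upstroke of the action potential, L-type and T-type calcium channels carry the calcium entry that drives contraction and early pacemaking, and HCN channels carry the pacemaker current. Potassium channels repolarize the membrane (voltage-gated and transient outward channels), hold its resting level (inward rectifiers and two-pore domain channels) or couple it to calcium (calcium-activated channels), and auxiliary subunits set how the pores traffic and gate. In the embryonic OFT these genes are read out from a mixture of myocardium, smooth muscle precursors, endocardium, neural crest-derived mesenchyme and nerve, so that in these bulk samples fewer cells of a type and less RNA per cell cannot be told apart.

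Depth on listed genes ran from 17783655 to 29035529 reads for control and from 24736761 to 34467710 for Gata6STOP/+ pools, and channel genes had between 6 and 7266 reads in a pool. Gata6 itself measured 315, 257 and 286 CPM in control replicates 3, 4 and 5 and 268, 203, 219 and 217 CPM in Gata6STOP/+ replicates 1, 3, 4 and 5. The Gata6STOP/+ mean was 79.2% of the control mean (227 ± 28.7, s.d., n=4, against 286 ± 28.9, n=3), and replicate 1 lay within the control range. In limma, the main test used below, the log2 fold change (Gata6STOP/+ minus control) was -0.34 ± 0.10 (s.e., unadjusted P=0.0058, adjusted P=0.389). A two-sided exact permutation test of the difference in mean CPM gave P=0.114. Its smallest possible value is 0.0571, above the threshold used here, so it could not decide whether Gata6 was lower. The study reports decreased Gata6 by RNA-seq and by quantitative real-time PCR. A count per gene includes any transcript of the edited copy that persists, so it checks the labels only in part. Myocardial markers were abundant in every pool, and the summed level of 14 myocardial genes was 25850 to 28682 CPM in control pools and 20480 to 29686 CPM in Gata6STOP/+ pools, lowest in Gata6STOP/+ replicate 1. Control replicate 4 stood apart in a set of channel, myocardial and endocardial genes that is described with Kcnj3. P-values weigh the difference between the groups against the spread between these pools, which may in part be technical.

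To learn which channels the OFT expresses, levels in control pools were divided by the length of each gene's exons, since only levels per length can be compared between genes. On this scale (CPM per kb of exon, mean ± s.d., n=3) the highest was Cacna1h, a T-type calcium channel, at 21.3 ± 3.38. Kcnh2, the pore of the rapid delayed rectifier, followed at 20.4 ± 1.15, a difference smaller than the spread between pools. Kcne1, which joins Kcnq1 in the slow delayed rectifier, stood at 15.5 ± 3.52, Kcnj5, a subunit of the acetylcholine-activated potassium channel, at 13.4 ± 1.61 and the calcium channel beta subunit gene Cacnb3 at 13.3 ± 1.11. These neighbours in the order also lay within each other's spread.

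The other genes among the 10 highest levels per kb were Cacng7 (11.2 ± 0.379), the two-pore domain channel Kcnk3 (10.4 ± 1.72), the modifier subunit Kcng2 (7.13 ± 1.53), the ATP-sensitive channel pore Kcnj11 (6.82 ± 0.358) and the L-type channel Cacna1c (5.69 ± 0.343). The order depends in part on the length used. Per kb of the longest transcript, Cacnb3 (19.5) lay above Kcne1 (15.7). On that scale Cacna1c (9.16) and the auxiliary subunit gene Kcnmb4 (8.36) lay above Kcng2 (7.58), which left the 10 highest. The median of the 77 genes was 1.09 CPM per kb, and the highest exceeded the lowest (Kcnma1, 0.0409 CPM per kb) by 520-fold. As CPM not corrected for length, 18 of the 77 genes had a control mean under 2 CPM, 53 lay between 2 and 50 CPM, and 6 reached 50 CPM or more.

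**Figure D1:**
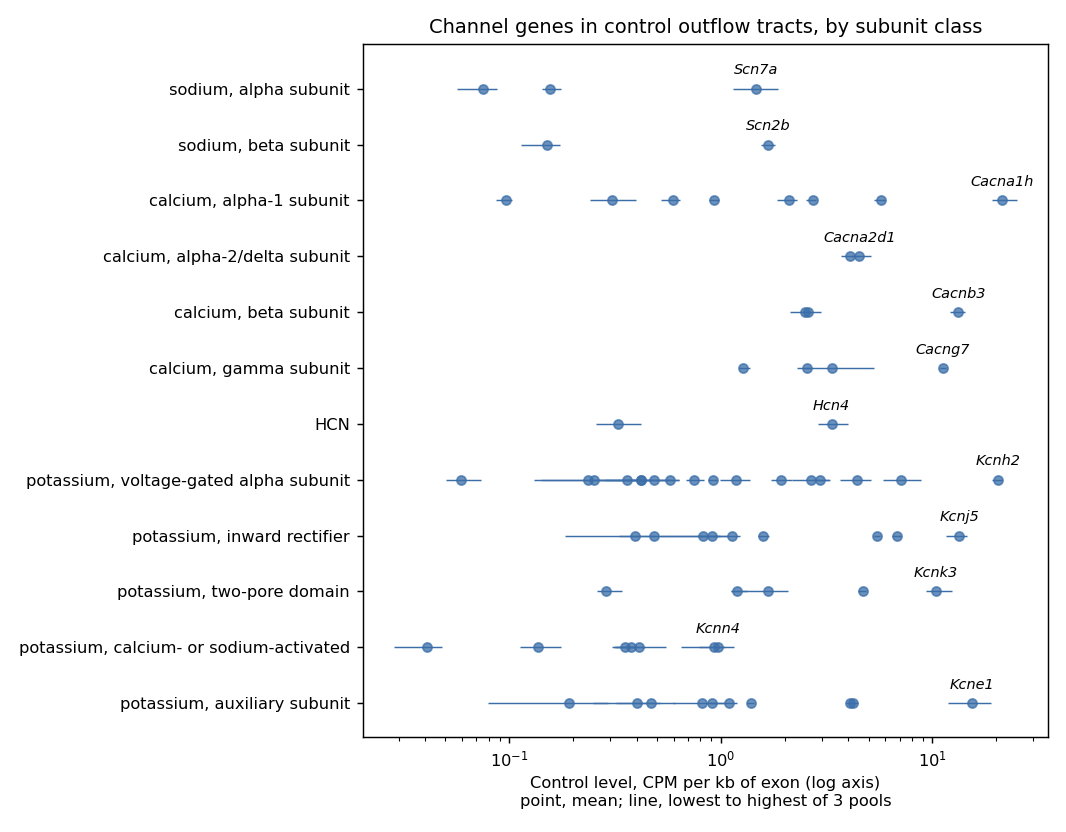
Control level of 72 channel genes in CPM per kb of exon (horizontal log axis; point, mean; line, lowest to highest of 3 control pools), 1 row per subunit class, with the highest gene of each class named. Cacna1h and Kcnh2 lead at 21.3 and 20.4 CPM per kb, and sodium channel and calcium-activated potassium channel genes all have means under 3 CPM per kb.

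Some classes were represented more fully than others. Among potassium channels, 20 of 40 annotated voltage-gated alpha subunit genes, 9 of 15 inward rectifier genes, 5 of 14 two-pore domain genes, 7 of 8 calcium- or sodium-activated genes and 10 of 15 auxiliary subunit genes were listed. Of the calcium channel genes, 8 of 10 alpha-1, 2 of 4 alpha-2/delta, 3 of 4 beta and 4 of 8 gamma subunit genes were listed. Sodium channels contributed 4 of 10 alpha and 3 of 4 beta subunit genes, and HCN channels 2 of 4.

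Whether loss of 1 Gata6 copy goes with a change of channel gene expression was tested with limma across all 14732 genes. No channel gene passed the threshold of 0.05 after Benjamini-Hochberg adjustment in limma (0 of 77, where 0% of all genes passed), and the smallest adjusted P of a channel gene was 0.243. DESeq2 and the quasi-likelihood test of edgeR also called 0 of 77. At an unadjusted limma P under 0.05 there were 15 of 77 channel genes (19.5%), against 8.06% of all genes. Of these, 11 were higher in Gata6STOP/+ pools (background 4.17%) and 4 were lower (background 3.88%).

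A second description counted genes for which every Gata6STOP/+ pool lay on the same side of every control pool. There were 9 such channel genes (11.7%, background 8.47%), with 6 higher (background 4.31%) and 3 lower (background 4.16%), and 7 of the 9 were also among the 15. Kcnma1, among the 6, reached the study's minimum CPM for a listed gene in Gata6STOP/+ pools only, which favoured its place there. The likelihood ratio test of edgeR, run on the reads recovered from the CPM values, called 3 of 77 at an adjusted P under 0.05, where it called 0.713% of all genes. Kcne3 and Kcnq3 were among them.

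The channel genes as a list went in both directions. Log2 fold changes are here always Gata6STOP/+ minus control. They are on the log2(CPM + 0.5) scale except where an edgeR test or fit is named, which gives its own estimate from recovered counts. They were above 0 for 44 channel genes (57.1%, against 49.8% of all genes) and below 0 for 33. The median of the channel genes was 0.03 against 0.00 over all genes. Their median absolute log2 fold change was 0.21 against 0.08 over all genes, and their median control mean was 5.08 CPM against 26.2 CPM. For 25 genes the change was smaller than 0.1 in either direction, and for 5 it exceeded 0.5. The summed level of the 77 genes was 1265 ± 48.7 CPM in control pools (n=3) and 1302 ± 50.7 CPM in Gata6STOP/+ pools (n=4), and the groups overlapped.

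**Figure D2:**
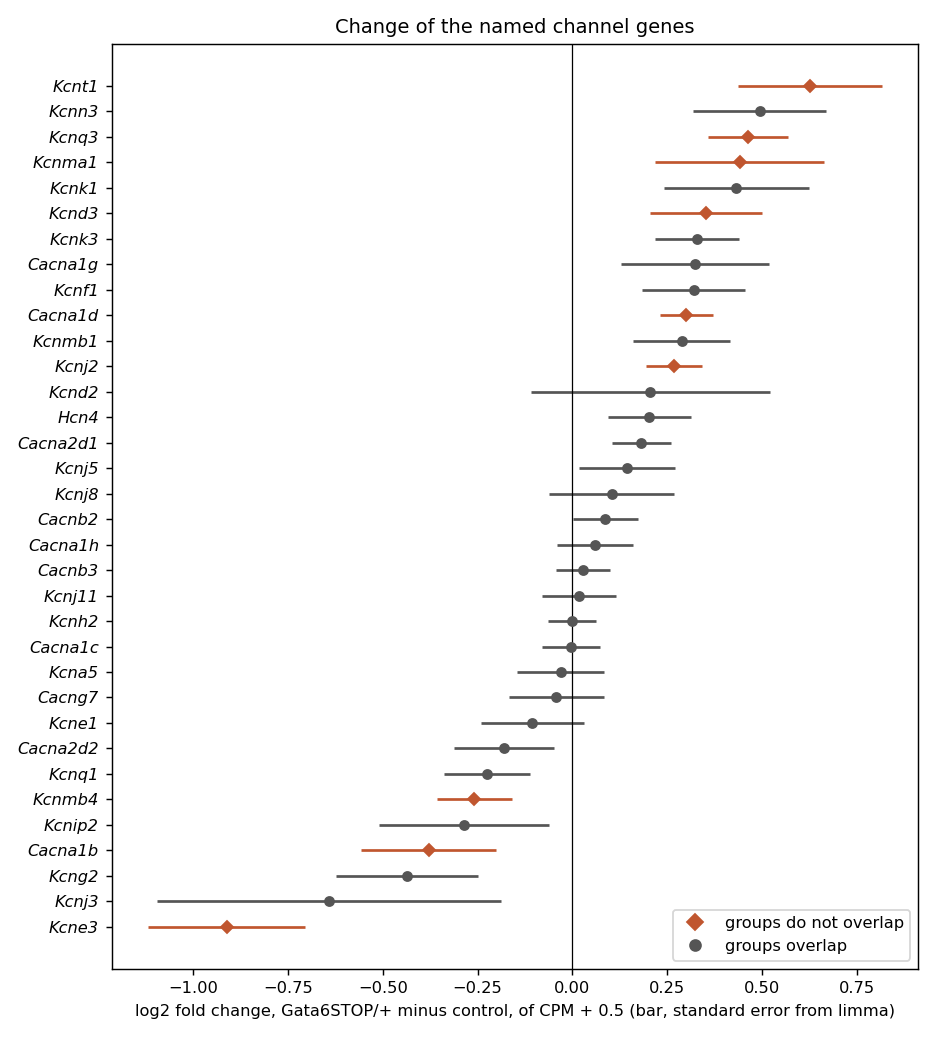
Log2 fold change (Gata6STOP/+ minus control, of CPM + 0.5) of the 34 channel genes named here, with the standard error from limma as bars; orange diamonds mark genes whose groups do not overlap and grey circles those that overlap. Kcne3 lies at -0.91 and Kcnt1 at 0.63, and none passed the adjusted threshold in limma.

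Kcne3 encodes an auxiliary subunit that joins Kcnq1 and other potassium channel pores (chr7:100176502-100184869, plus strand, GRCm38). It was the channel gene with the smallest limma P-value. Its level was 2.11, 1.59 and 2.13 CPM in control replicates 3, 4 and 5 and 0.631, 1.014, 0.610 and 0.959 CPM in Gata6STOP/+ replicates 1, 3, 4 and 5. Every Gata6STOP/+ pool lay under every control pool, and the mean was 41.4% of the control mean. The log2 fold change was -0.91 ± 0.21 (s.e., limma adjusted P=0.243). The likelihood ratio test of edgeR gave an adjusted P of 0.0105, and 0.00925 with control replicate 4 left out. The gene was counted with 15 to 46 reads in a pool.

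Kcnq3 encodes a pore of the M-current, a slow potassium current best known in neurons (chr15:65986387-66286642, minus strand). It measured 9.30, 8.11 and 8.01 CPM in control pools and 11.5, 12.8, 10.7 and 12.5 CPM in Gata6STOP/+ pools. All 4 Gata6STOP/+ pools were higher than all 3 control pools, with a log2 fold change of 0.46 ± 0.11 (s.e., limma adjusted P=0.243). The adjusted P in the likelihood ratio test was 0.0491, and without control replicate 4 it was 0.222, so the call was lost there. Its relative Kcnq5 (14.8 ± 1.67 against 14.5 ± 0.567 CPM, s.d.) had a log2 fold change of -0.02.

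Cacna1d, an L-type calcium channel that opens at low voltage and serves in the sinoatrial node (chr14:30039939-30491455, minus strand), measured 35.5, 32.0 and 35.3 CPM in control pools and 40.9, 44.99, 43.5 and 40.0 CPM in Gata6STOP/+ pools. The groups did not overlap, and the log2 fold change was 0.30 ± 0.07 (s.e., limma adjusted P=0.250). Kcnj2, the main inward rectifier pore that sets the resting potential (chr11:111066164-111076821, plus strand), measured 29.7, 28.7 and 30.7 CPM in control pools. In Gata6STOP/+ pools it measured 38.5, 32.7, 36.4 and 36.1 CPM, again all higher than in control pools, with a log2 fold change of 0.27 ± 0.07 (s.e., limma adjusted P=0.347).

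**Figure D3:**
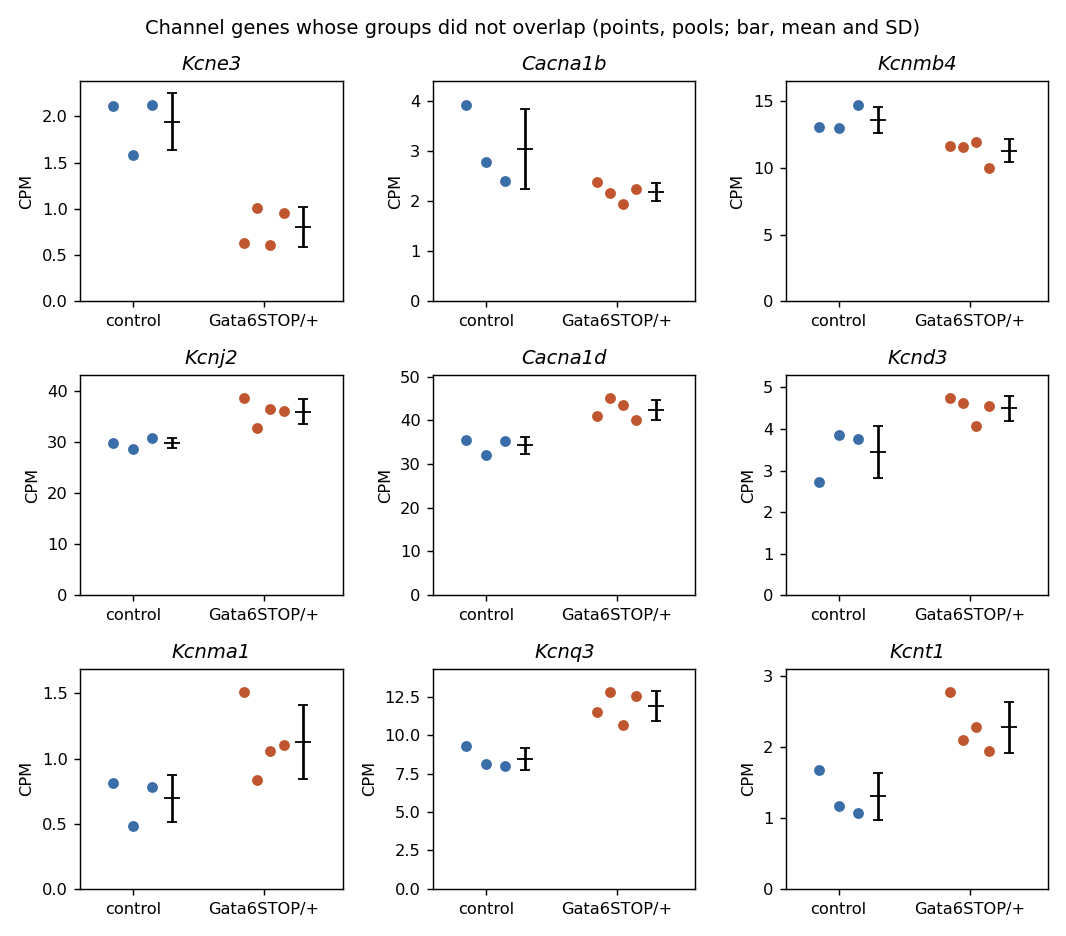
CPM of the 9 channel genes whose groups do not overlap, 1 panel per gene with a vertical axis from 0; points are pools (3 control, 4 Gata6STOP/+) and the black bar beside them gives mean and s.d. In the panels of Kcne3, Cacna1b and Kcnmb4 all Gata6STOP/+ pools are lower, and in the other 6 all are higher. Kcnma1 reached the study's minimum CPM for a listed gene in Gata6STOP/+ pools only.

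Because Gata6 is a transcription factor that binds GATA motifs, the RefSeq promoters of the channel genes (GRCm38.p6, 250 bases before to 50 after each start) were searched on both strands for the letters AGATAA or AGATAG and for their variants with T in first place, TGATAA or TGATAG. Of the 77 genes, 53 had an entry, with 78 promoters between them. A match was found in 24.4% of the 78 promoters, compared with 18.8% of the 13897 promoters of listed genes and 29.8% of all 32851 promoters. The matches fell in 17 channel genes, and in 4 of the 12 genes with an entry that were named for their P-value or for groups that do not overlap (Cacna1d, Kcne3, Kcnj2 and Kcnk1). Kcne3 and Cacna1d each have another RefSeq promoter without a match (chr7:100178433-100178732 and chr14:30353437-30353736), which is not shown. For the 3 of these genes whose groups do not overlap, the 250 bases before the start of the promoter with the match are shown. They run 5′ to 3′ along the gene, with the matching letters in capitals. The match begins 231 bases before the start in Kcne3 (chr7:100176420-100176669, plus strand), 158 bases in Cacna1d (chr14:30491157-30491406, minus strand) and 30 bases in Kcnj2 (chr11:111065914-111066163, plus strand), where it reads as TGATAA on the opposite strand. The RefSeq start used here is that of the GENCODE gene for Kcnj2. For Kcne3 the start lies 168 bases inside the gene span given above, and for Cacna1d 299 bases inside it. These 2 windows therefore lie in part or in full inside the gene span.
Kcne3: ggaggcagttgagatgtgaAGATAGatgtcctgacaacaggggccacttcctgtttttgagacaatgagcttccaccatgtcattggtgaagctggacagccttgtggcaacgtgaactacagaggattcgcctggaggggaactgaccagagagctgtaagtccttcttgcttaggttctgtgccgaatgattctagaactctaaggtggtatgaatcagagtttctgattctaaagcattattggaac
Cacna1d: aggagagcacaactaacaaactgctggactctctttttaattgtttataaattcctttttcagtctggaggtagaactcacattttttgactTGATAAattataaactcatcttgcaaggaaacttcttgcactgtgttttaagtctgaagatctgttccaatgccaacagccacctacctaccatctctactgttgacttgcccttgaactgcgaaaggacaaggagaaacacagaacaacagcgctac
Kcnj2: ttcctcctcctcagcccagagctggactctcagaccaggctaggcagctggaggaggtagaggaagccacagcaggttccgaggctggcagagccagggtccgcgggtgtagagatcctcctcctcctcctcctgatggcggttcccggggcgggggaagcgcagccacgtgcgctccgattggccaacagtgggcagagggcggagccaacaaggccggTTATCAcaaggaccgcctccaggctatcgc
The letters alone do not say whether any factor binds there. The 3 promoters differ in composition, with 46.8% G and C in Kcne3, 39.6% in Cacna1d and 65.6% in Kcnj2.

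Control replicate 4 stood above every other pool for Kcnj3, Kcnd2 and Cacng6, with more than 2 times the mean of the other control pools. Kcnip4 and Kcns3 in control replicate 5 also exceeded 2 times the mean of the other control pools. Kcnj3, which pairs with Kcnj5 in the acetylcholine-activated channel of atrial muscle, measured 1.05, 5.56 and 0.952 CPM in control pools and 0.772, 1.92, 0.895 and 0.785 CPM in Gata6STOP/+ pools. Its log2 fold change of -0.64 ± 0.45 (s.e., limma adjusted P=0.773) was 0.03 without control replicate 4. Kcnd2, a transient outward channel pore, was 3.319 times as high in that pool as in the other control pools, and the calcium channel gamma subunit gene Cacng6 2.22 times.

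Several genes outside the channel families were high in the same pool. Nppa, the atrial natriuretic peptide gene and a marker of chamber myocardium, measured 32.1, 174 and 18.3 CPM in control pools and 3.26, 28.3, 6.63 and 11.8 CPM in Gata6STOP/+ pools. The ratio of control replicate 4 to the mean of the other controls was 6.90 for Nppa, 2.47 for Abcc9 (the regulatory subunit of ATP-sensitive channels), 2.28 for Gja1 and 1.94 for Gja5 (gap junction proteins), 2.38 for Npr3 and 2.30 for Emcn (endocardial genes) and 1.44 for Myl2 (ventricular myosin light chain). Other endothelial and endocardial genes set that pool apart less or not at all. In control replicates 3, 4 and 5, Kdr measured 87.0, 137 and 78.6 CPM and Cdh5 162, 213 and 149 CPM. Tie1 measured 140, 159 and 112 CPM, Pecam1 151, 160 and 124 CPM and Tek 167, 174 and 166 CPM. Nfatc1 measured 118, 91.3 and 83.6 CPM. The gap junction genes Gja3 and Gjc1 measured 9.30, 11.4 and 9.41 CPM and 136, 119 and 144 CPM. Over all 14 myocardial genes the median ratio was 1.05, with 9 above 1 and 5 below, from 0.69 for Myl7 (atrial myosin light chain) and 0.81 for Nkx2-5 up to 1.181 for Myh6, 1.44 for Myl2 and 6.90 for Nppa. The part of these genes' cells in the Kcnj3, Kcnd2 and Cacng6 values was not tested.

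**Figure D4:**
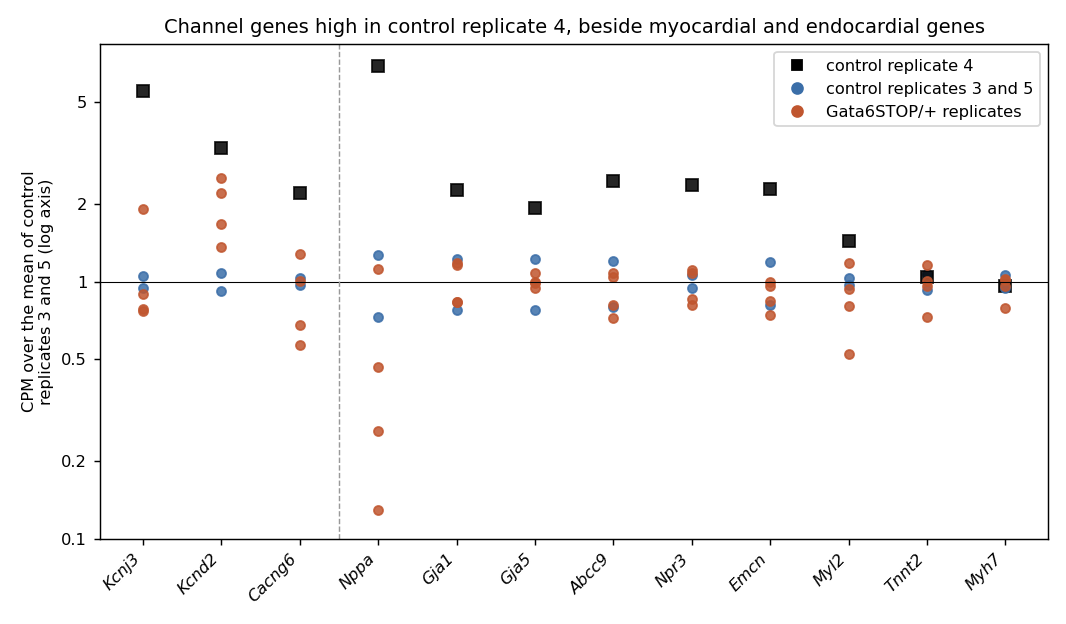
CPM of 3 channel genes (left of the dashed line) and 9 myocardial, coupling and endocardial genes in each pool, divided by the mean of control replicates 3 and 5 (vertical log axis); black squares are control replicate 4, blue circles control replicates 3 and 5, and orange circles the 4 Gata6STOP/+ pools. Control replicate 4 is the highest pool for the 10 genes from Kcnj3 to Myl2, with ratios from 1.44 (Myl2) to 6.90 (Nppa), and lies among the other pools for Tnnt2 and Myh7.

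Several sodium channel genes had overlapping groups. Scn7a, an atypical sodium-sensing member, measured 10.8 ± 2.65 CPM in control and 13.2 ± 1.005 CPM in Gata6STOP/+ pools (s.d., log2 fold change 0.31 ± 0.14, s.e.). Scn2a and Scn8a, pores best known from neurons, had control means of 1.98 and 1.19 CPM and log2 fold changes of -0.04 and 0.03. The beta subunit genes Scn2b and Scn3b had log2 fold changes of -0.09 and 0.23. Scn3b reached the study's minimum CPM for a listed gene in Gata6STOP/+ pools only.

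Cacna1c, the principal L-type pore of heart muscle, measured 122, 127 and 113 CPM in control pools and 106, 128, 125 and 124 CPM in Gata6STOP/+ pools, with a log2 fold change of 0.00 ± 0.08 (s.e.). Cacna1h measured 246, 187 and 191 CPM in control pools and 195, 215, 240 and 211 CPM in Gata6STOP/+ pools, with a log2 fold change of 0.06 ± 0.10. Both sets of pools overlapped widely. The other T-type pore, Cacna1g, measured 18.7, 23.3 and 22.0 CPM in control pools and 37.9, 17.9, 27.3 and 27.4 CPM in Gata6STOP/+ pools. Its log2 fold change of 0.32 ± 0.20 (s.e.) was 0.16 without Gata6STOP/+ replicate 1, the highest pool.

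Cacna1b, the N-type pore of nerve terminals, had lower values in all Gata6STOP/+ pools, with 3.93, 2.79 and 2.41 CPM in control and 2.39, 2.17, 1.95 and 2.24 CPM in Gata6STOP/+ pools. Control replicate 5 and Gata6STOP/+ replicate 1 nearly met, and the log2 fold change was -0.38 ± 0.18 (s.e., limma adjusted P=0.632). The neuronal pores Cacna1a and Cacna1e had log2 fold changes of 0.07 and -0.30, and Cacna1s, the L-type pore of skeletal muscle, 0.24, each with overlapping groups.

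Of the auxiliary calcium channel subunits, Cacna2d1, which carries pores to the membrane, measured 53.1, 63.9 and 51.0 CPM in control pools and 63.4, 63.1, 61.9 and 64.7 CPM in Gata6STOP/+ pools. Control replicate 4 lay within the Gata6STOP/+ range, and the log2 fold change was 0.18 ± 0.08 (s.e., limma adjusted P=0.595). Cacna2d2 measured 32.4 ± 3.28 CPM in control and 28.8 ± 5.43 CPM in Gata6STOP/+ pools (s.d., log2 fold change -0.18). The beta subunit genes Cacnb1, Cacnb2 and Cacnb3 had log2 fold changes of 0.01, 0.09 and 0.03.

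Of the gamma subunit genes, Cacng7 measured 27.3 ± 0.924 CPM in control and 26.9 ± 5.06 CPM in Gata6STOP/+ pools, a log2 fold change of -0.04, and Cacng4 and Cacng8 had values of -0.04 and 0.06. Cacng6 had -0.58 ± 0.30 (s.e.) with control replicate 4 and -0.22 without it. Cacng7, Cacng8 and Cacng6 lie next to each other on chromosome 7, with 22.5 and 8.55 kb between them. The pacemaker channel gene Hcn4 measured 19.3, 24.3 and 17.7 CPM in control pools and 21.8, 25.1, 22.2 and 24.6 CPM in Gata6STOP/+ pools (log2 fold change 0.20 ± 0.11, s.e.), and Hcn3 had a log2 fold change of 0.19.

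The voltage-gated potassium channel pores split evenly, with 10 of 20 log2 fold changes above 0. Kcnh2 measured 104, 99.3 and 92.7 CPM in control pools and 92.5, 102, 103 and 96.8 CPM in Gata6STOP/+ pools, so that the group means were 98.6 ± 5.59 and 98.6 ± 4.91 CPM (s.d.). Kcnq1, the slow delayed rectifier pore, measured 13.3, 11.1 and 11.9 CPM in control pools and 8.66, 11.2, 10.7 and 10.7 CPM in Gata6STOP/+ pools. Gata6STOP/+ replicate 3 lay within the control range, and the log2 fold change was -0.22 ± 0.11 (s.e., limma adjusted P=0.663). Its partner Kcne1 measured 49.7 ± 11.3 and 45.5 ± 4.41 CPM (s.d., log2 fold change -0.11).

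Kcnd3, a transient outward channel pore, was higher in every Gata6STOP/+ pool, with 2.73, 3.86 and 3.75 CPM in control and 4.74, 4.64, 4.07 and 4.56 CPM in Gata6STOP/+ pools. Its log2 fold change was 0.35 ± 0.15 (s.e., limma adjusted P=0.583). Its partner Kcnip2 measured 1.40 ± 0.480 and 1.03 ± 0.160 CPM (s.d., log2 fold change -0.29). The related pore Kcnd2 measured 0.671, 2.42 and 0.784 CPM in control and 1.61, 1.85, 1.22 and 0.989 CPM in Gata6STOP/+ pools. Its log2 fold change of 0.21 was 0.62 without control replicate 4. Kcna5, the ultrarapid atrial delayed rectifier, measured 12.6 ± 2.07 and 12.3 ± 0.507 CPM (s.d., log2 fold change -0.03).

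The electrically silent subunits, which assemble with other voltage-gated pores and modify them, differed in direction. Kcnf1 measured 5.71, 4.76 and 6.55 CPM in control and 6.10, 7.39, 7.57 and 7.65 CPM in Gata6STOP/+ pools (log2 fold change 0.32 ± 0.14, s.e., limma adjusted P=0.593), with only Gata6STOP/+ replicate 1 inside the control range. Kcng2 measured 20.2, 26.3 and 17.4 CPM in control and 10.7, 17.8, 15.7 and 18.8 CPM in Gata6STOP/+ pools (log2 fold change -0.44 ± 0.19, s.e., limma adjusted P=0.598). Its lowest pool, Gata6STOP/+ replicate 1, was also the pool with the lowest sum of myocardial genes, and without it the log2 fold change was -0.27. Whether that pool's makeup has a part in the Kcng2 value was not tested. Kcns3 had a log2 fold change of 0.22. The voltage-gated pores Kcna4, Kcna6, Kcna7, Kcnb2, Kcnc2, Kcnd1 and Kcnh7 had overlapping groups and log2 fold changes between -0.32 (Kcna6, 15.9 ± 3.42 against 12.6 ± 2.37 CPM, s.d.) and 0.34 (Kcnb2, 0.898 ± 0.194 against 1.27 ± 0.282 CPM).

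Of the 9 inward rectifier genes, 7 had log2 fold changes above 0. Beside Kcnj2, the second resting-current pore Kcnj12 measured 4.33 ± 0.258 CPM in control and 4.87 ± 0.369 CPM in Gata6STOP/+ pools (s.d., log2 fold change 0.15). Kcnj5 measured 68.1, 54.1 and 66.1 CPM in control and 53.6, 79.0, 73.4 and 73.3 CPM in Gata6STOP/+ pools, with a log2 fold change of 0.14 ± 0.13 (s.e.). The pores of ATP-sensitive channels, which link membrane voltage to metabolism, were close between groups, with 25.1 ± 1.32 and 25.5 ± 2.94 CPM for Kcnj11 and 2.31 ± 0.398 and 2.50 ± 0.271 CPM for Kcnj8 (s.d.). The remaining inward rectifiers Kcnj4, Kcnj14 and Kcnj15 had log2 fold changes of 0.23, 0.21 and -0.10.

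In the two-pore domain family, whose channels carry background potassium current, Kcnk3 measured 37.1, 49.3 and 37.9 CPM in control pools and 47.9, 57.8, 55.3 and 46.6 CPM in Gata6STOP/+ pools. Control replicate 4 lay within the Gata6STOP/+ range and the other control pools lay under all of it. The log2 fold change was 0.33 ± 0.11 (s.e., limma adjusted P=0.466). With control replicate 4 left out, the likelihood ratio test of edgeR gave a log2 fold change of 0.47 and an adjusted P of 0.00954.

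Kcnk1 measured 2.49, 4.62 and 4.03 CPM in control and 6.10, 4.85, 4.92 and 4.45 CPM in Gata6STOP/+ pools (log2 fold change 0.43 ± 0.19, s.e., limma adjusted P=0.601). Its control replicate 4 lay just above the lowest Gata6STOP/+ pool. Kcnk6 had a log2 fold change of -0.21 ± 0.12 (19.5 ± 0.939 against 16.9 ± 2.52 CPM, s.d.), and Kcnk2 and Kcnk5 had values of 0.21 and 0.01.

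Potassium channels opened by calcium or sodium were low in these pools, and 4 of 7 had log2 fold changes above 0. Kcnt1, a sodium-activated pore, had the highest log2 fold change of the 77 genes at 0.63 ± 0.19 (s.e., limma adjusted P=0.401), from 1.68, 1.17 and 1.06 CPM in control and 2.77, 2.10, 2.28 and 1.95 CPM in Gata6STOP/+ pools. Kcnma1, the large-conductance calcium-activated pore of smooth muscle and nerve, measured 0.815, 0.483 and 0.784 CPM in control and 1.51, 0.833, 1.06 and 1.10 CPM in Gata6STOP/+ pools. The groups of both genes did not overlap, although for Kcnma1 the lowest Gata6STOP/+ pool exceeded the highest control pool by little (log2 fold change 0.44 ± 0.22, s.e., limma adjusted P=0.663). The study kept genes that reached a minimum CPM in several pools, and Kcnma1 reached it in Gata6STOP/+ pools only. That filter favoured a higher value in Gata6STOP/+ pools for this gene, so its separation carries little weight.

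Kcnn3, a small-conductance calcium-activated pore, measured 4.17, 3.21 and 3.64 CPM in control and 6.84, 4.09, 4.88 and 5.96 CPM in Gata6STOP/+ pools. Gata6STOP/+ replicate 3 lay just under the highest control pool, and the log2 fold change was 0.49 ± 0.17 (s.e., limma adjusted P=0.497). Its relatives Kcnn1, Kcnn2 and Kcnn4 had log2 fold changes of -0.10, -0.11 and 0.34, and Kcnt2, the relative of Kcnt1, -0.05.

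The auxiliary subunits of the large-conductance channel differed in direction. Kcnmb1, its beta subunit in smooth muscle, measured 17.9, 17.6 and 17.3 CPM in control and 17.5, 26.7, 23.7 and 19.6 CPM in Gata6STOP/+ pools (log2 fold change 0.29 ± 0.13, s.e., limma adjusted P=0.602). Kcnmb4, its beta subunit in the nervous system, measured 13.0, 13.0 and 14.7 CPM in control and 11.6, 11.6, 11.96 and 10.002 CPM in Gata6STOP/+ pools, lower in all of them (log2 fold change -0.26 ± 0.10, s.e., limma adjusted P=0.534). The other potassium channel auxiliary genes (Kcnab1, Kcnab2, Kcnab3, Kcnip3 and Kcnip4) had log2 fold changes between -0.23 and 0.24 with overlapping groups.

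Reads of overlapping genes bear on a few of these values. Exons of 7 channel genes overlap a listed gene on the opposite strand. The overlap covers 20.8% of the exons of Kcnmb4 (Kcnmb4os2), 17.1% of those of Hcn3 (Pklr), 9.10% for Kcng2, 5.76% for Kcnk3, 4.63% for Kcnip4, 4.57% for Kcnh7 and 2.96% for Kcnq1 (Kcnq1ot1). The library kit keeps strand, but the strand setting used in counting is not given in the sources used here, so reads of these pairs may be shared.

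The channels' partners and the genes that act on their current were counted beside them. Of 33 genes for regulatory subunits, anchors and modifiers of channels, 25 were listed, 0 passed the adjusted threshold in limma and 3 had an unadjusted P under 0.05 (12%, where the background was 8.06%). Ank3, the ankyrin that anchors sodium channels, measured 171 ± 4.19 CPM in control and 194 ± 10.8 CPM in Gata6STOP/+ pools (s.d., log2 fold change 0.18 ± 0.06, s.e.). Stac, an adaptor of L-type channels, measured 1.97 ± 0.431 and 3.24 ± 0.375 CPM (log2 fold change 0.61 ± 0.17), and Cav3, the muscle caveolin, 36.6 ± 1.84 and 31.9 ± 3.08 CPM (log2 fold change -0.20 ± 0.08). The median log2 fold change of the 25 genes was -0.05.

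Of 32 genes of calcium handling and electrical coupling, 31 were listed, 0 passed the adjusted threshold in limma and 3 had an unadjusted P under 0.05 (9.68%, near the background of 8.06%). These 3 had positive log2 fold changes. Ryr3 and Itpr1, which release calcium from internal stores, had log2 fold changes of 0.47 ± 0.19 and 0.23 ± 0.08 (s.e.), and Casq2, the calcium buffer of the cardiac store, 0.20 ± 0.08. The median of the 31 genes was 0.04. Ryr2, the release channel of heart muscle, measured 183 ± 20.7 and 184 ± 18.0 CPM (s.d.), and the calcium pump gene Atp2a2 1109 ± 128 and 1117 ± 103 CPM.

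Markers of the cell types that the OFT could hold were read in the same way, and 0 of the listed markers of any type passed the adjusted threshold in limma. Of the 14 myocardial genes, 12 had log2 fold changes below 0, with a median over the 14 of -0.14. An unadjusted limma P under 0.05 was found for 3 of the 14 (Nppa, Tnni1 and Myl3, 21.4%, where the background was 8.06%). Of 9 smooth muscle genes, 7 had log2 fold changes above 0, with a median of 0.16 and values of 0.68 for Myh11, 0.19 for Acta2 and 0.16 for Tagln. Smtn alone had an unadjusted P under 0.05 (log2 fold change -0.15, 11.1% of the 9 genes). The smooth muscle sum ranged from 3116 to 3627 CPM in control and from 3122 to 4129 CPM in Gata6STOP/+ pools, so the groups overlapped. Among Gata6STOP/+ pools it was lowest in replicate 1. In that pool Kcnma1 was at its highest (1.51 CPM) and Kcnmb1 at the lowest of the Gata6STOP/+ pools (17.5 CPM).

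For nerve, 12 of 19 marker genes were listed, and Stmn2 (log2 fold change 0.40), Th (0.64) and Tubb3 (-0.39) had an unadjusted P under 0.05. These were 25% of the listed nerve markers, where the background was 8.06%. The sum of the listed nerve markers ranged from 82.3 to 106 CPM in control and from 88.6 to 103 CPM in Gata6STOP/+ pools. Of the neural crest and Schwann precursor markers, 5 of 8 were listed, and Erbb3 alone (20% of the 5) had an unadjusted P under 0.05, with a log2 fold change of -0.39. The sum of these 5 genes was 200.2 to 236 CPM in control and 164 to 205 CPM in Gata6STOP/+ pools. None of the 8 endothelial and endocardial genes (control sums 776 to 1069 CPM, Gata6STOP/+ sums 853 to 1044 CPM) or of the 4 listed of 9 epithelial genes (112 to 182 and 130 to 180 CPM) had an unadjusted limma P under 0.05. No listed marker was at 0 in any pool. The part of these cell types in the values of the channel genes was not tested.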

How the data were processed

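Per the labels, RNA of pooled E11.5 OFTs was made into directional polyadenylated libraries, and the study names Cutadapt, RSEM, GRCm38 with Ensembl genes and edgeR's TMM. The authors deposited 1 table of 14732 genes in CPM, with 1 column per pool, all of which were used (7 pools). Dividing each column by the worth of 1 read gave whole numbers for 100% of values (tolerance 0.01), and these recovered counts entered only the count tests. Members were found by gene symbol, and coordinates and exon lengths come from GENCODE M21 on GRCm38. Genes were tested with limma 3.58.1 (R 4.3.3, lmFit and eBayes with a trend) on log2(CPM + 0.5) in a fit of all 7 pools with genotype as its sole term, and two-sided P-values were adjusted by Benjamini-Hochberg at a threshold of 0.05. Fold changes on this scale understate those of low genes. Alternatives were constants of 0.1 and 2 CPM, a mean of at least 5 CPM, limma with no trend, median-of-ratios scaling, a replicate block, both the likelihood ratio and the quasi-likelihood test of edgeR 4.0.16 on recovered counts, DESeq2 1.42.0, and each pool left out in turn. The likelihood ratio test without control replicate 4 was added after seeing the data.

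Named genes are those with an unadjusted limma P under 0.05 or groups that do not overlap, 24 channel genes known from the heart (22 listed) and the 10 highest control levels per kb, of which 34 are named here. Some items are not reported here. The members and all lists were chosen with earlier results of these data known. Exact permutation tests (scipy 1.17.1) covered 2 values, of which that of Gata6 is given. The statistics were tested on simulated data before use.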

Additional observations from a re-analysis of the deposited data

Results flagged for a closer look

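In the 4 Gata6STOP/+ pools, 1 pool stood far from the others in 2 of the 34 channel genes named here by Dixon's test, which chance alone flags in about 1 of 20 groups. Kcnj3 was at 1.92 CPM in Gata6STOP/+ replicate 3, where the others had 0.772 to 0.895 CPM. Kcnf1 was at 6.10 CPM in Gata6STOP/+ replicate 1, where the others had 7.39 to 7.65 CPM. The groups of 3 control pools were too small for this test.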

How the results depend on the processing

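No channel gene passed the adjusted threshold in limma as reported, and the count of channel genes called stayed at 0 under the other constants, the filter, no trend, median-of-ratios scaling, limma and quasi-likelihood fits with or without the block, DESeq2 and each pool left out. The exceptions were the likelihood ratio test (3), the same test with the replicate block (1, Kcne3) and with control replicate 4 left out (2, Kcne3 and Kcnk3). Over all 14732 genes the count of 0 became 1 with a constant of 0.1, 14 with limma and the replicate block, 105 with the likelihood ratio test (118 with the replicate block, 131 with control replicate 4 left out), 13 with quasi-likelihood and the replicate block, and 88 with DESeq2, and it ranged from 0 to 13 with 1 pool left out. The groups share the replicate numbers 3, 4 and 5, but the study's methods name no block, so none was used in the main fit. Same-numbered pools did not deviate together (correlations over 11627 genes of -0.046, -0.266 and -0.017), although weak correlations cannot exclude a pairing. Replicate 1 exists for Gata6STOP/+ only, so fits with the replicate block take that pool out of the genotype comparison. Under the replicate block the median log2 fold change of the channel genes was 0.074 in the quasi-likelihood and 0.075 in the likelihood ratio fit.

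With 1 pool left out, channel genes with an unadjusted P under 0.05 numbered 9 to 16, and those whose groups do not overlap 10 to 24. The lowest share at unadjusted P was 11.7% (9 genes, without control replicate 3), against 6.37% of all genes. Groups did not overlap for 31.2% of channel genes (24, without control replicate 4) against 19.1% of all genes, and for 13.0% (10, without Gata6STOP/+ replicate 4) against 13.3%, a count that grows with fewer pools by construction. Of the named genes' log2 fold changes, 601 values under alternatives kept direction and side of the threshold, 29 changed sign and 5 passed the threshold newly. Among the genes whose sign turned, Kcnj3 did so without control replicate 4 and Kcnd2 without control replicate 3. Cacna1c was 0.058 and Kcnh2 0.029 in the 3 fits with the replicate block. With 1 pool left out, Cacna1c ranged from -0.051 to 0.058, Kcnh2 from -0.044 to 0.037, Cacna1h from -0.012 to 0.19, Cacnb3 from -0.040 to 0.078, Cacng7 from -0.15 to 0.061, Kcna5 from -0.15 to 0.077, Kcnd2 from -0.035 to 0.62, Kcne1 from -0.28 to 0.052, Kcnj11 from -0.034 to 0.097 and Kcnj3 from -1.001 to 0.029. In the likelihood ratio test with control replicate 4 left out, edgeR's own estimates were 0.037 for Cacna1c, -0.020 for Cacna1h and -0.040 for Cacnb3. They were 0.0032 for Kcnh2, -0.020 for Kcnj11 and 0.12 for Kcnj3. The cause was not tested. Depth limits the genes under 2 CPM most.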
